A study of Homo sapiens with 6 samples.

Results

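The human mitochondrial genome carries 37 genes, and all 37 were found in the deposited count table as the Ensembl identifiers whose symbol begins with MT-. They make up 37 of the table's 60617 rows and comprise 13 protein-coding genes, 2 rRNA genes and 22 tRNA genes. In the GENCODE v29 annotation of chromosome M (GRCh38), 28 lie on the plus strand and 9 on the minus strand. The RNA came from NCI-H1299, an established p53-null line that the labels call lung adenocarcinoma, and was sequenced in 6 libraries. The 3 control libraries are labelled wild type and carry Puro in their titles. The 3 knockdown libraries are labelled as FuHsi knockdown and carry Sh1 in their titles. Agents shared by both groups, such as a vector or a selection drug, are not described beyond these words. No row of the table could be matched to FuHsi, and how far its RNA was reduced is not reported here. The labels do not say whether replicates were separate cultures, so p-values measure the spread between these libraries, which may be technical. The series set out to learn what FuHsi does in the nucleolus by profiling knockdown cells.

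Mitochondrial DNA is transcribed on both strands into long RNAs that span many genes. Most mRNAs and both rRNAs are cut out of the transcript of one strand at the tRNAs that lie between them, whereas MT-ND6 and a minority of the tRNAs come from the other strand. The 13 mRNAs encode core subunits of respiratory complexes I, III and IV and of the ATP synthase, and the 2 rRNAs build the mitochondrial ribosome that translates them. After the shared precursor is cut, the level of each RNA depends on its own stability.

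Library totals ran from 24231515 to 34306849 counts, and every control library was deeper than every knockdown library. CPM is a gene's count relative to the scaled size of its library. Of the 9 epithelial and lung markers chosen, KRT8 and KRT18 were abundant, at 494 and 334 CPM in control. In knockdown their means were 319.6 and 319.8 CPM, with separate groups for KRT8 and overlapping ones for KRT18. The other 7, among them EPCAM, NKX2-1, NAPSA and SFTPB, were below 1 CPM in every library, and SFTPC was at 0 in all. Defining lung markers were thus at or near 0 in these libraries. Of 4 mesenchymal markers, mean CPM in control and knockdown libraries was 1365 and 838 for VIM, 41.8 and 57.2 for ZEB1, 28.995 and 55.4 for FN1, and 66.4 and 66.1 for CDH2, so the list had no common direction. Of 6 markers of blood, endothelial and fibroblast cells, 5 were below 1 CPM in every library. The other, COL1A1, had a mean of 1.54 CPM in control and 1.35 in knockdown. All 6 together summed to 1.90 to 3.02 CPM in control and 2.66 to 3.48 in knockdown.

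Several mitochondrial genes share bases, and counts of such genes depend on how the counting treated a read that touches both. MT-ATP8 and MT-ATP6 share 46 bases, MT-ND4L and MT-ND4 share 7, and MT-ATP6 and MT-CO3 share 1. The overlaps of 46 and 7 bases are shown because the genes of each of these pairs are compared with each other below. The shared bases are in capitals in the last bases of the first gene and the first bases of the second, read 5′ to 3′ on the plus strand of GRCh38 from the GENCODE v29 transcripts.
MT-ATP8, chrM:8507-8572: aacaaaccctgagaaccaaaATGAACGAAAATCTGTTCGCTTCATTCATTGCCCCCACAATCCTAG
MT-ATP6, chrM:8527-8592: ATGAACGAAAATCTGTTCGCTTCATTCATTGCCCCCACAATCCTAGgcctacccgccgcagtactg
MT-ND4L, chrM:10701-10766: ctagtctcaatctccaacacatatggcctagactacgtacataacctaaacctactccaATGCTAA
MT-ND4, chrM:10760-10825: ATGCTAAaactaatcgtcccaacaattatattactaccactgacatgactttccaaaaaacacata

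The tRNA genes are represented by the final pair on the map, MT-TT (mitochondrial tRNA-Thr, plus strand) and MT-TP (tRNA-Pro, minus strand), since these neighbours had very different counts. Only 2 bases separate them. Each whole gene is given 5′ to 3′ on its own strand.
MT-TT, chrM:15888-15953: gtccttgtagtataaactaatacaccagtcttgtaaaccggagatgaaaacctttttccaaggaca
MT-TP, chrM:15956-16023: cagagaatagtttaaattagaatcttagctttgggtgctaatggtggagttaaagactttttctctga

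The mitochondrial genome as a whole held a similar part of all counts in both groups, while its make-up differed. The 37 genes took 3.34%, 3.37% and 3.45% of counts in the control libraries and 3.47%, 3.60% and 3.43% in the knockdown libraries. The groups overlapped, and the means of 3.38% ± 0.0609 and 3.50% ± 0.0878 (SD, n = 3) gave an exact two-sided permutation p of 0.2. The 13 protein-coding genes took 3.12% ± 0.0554 in control and 3.12% ± 0.0939 in knockdown (exact permutation p = 0.9). These shares are relative to the library total and so amount to scaling by library size alone, which is compared with another scaling below. In RNA from whole cultures, a change in mitochondrial genomes per cell and a change in transcripts per genome cannot be told apart.

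The rRNA genes and the minus-strand genes took a larger share in every knockdown library. The 2 rRNA genes took 0.254%, 0.254% and 0.264% of counts in control and 0.361%, 0.375% and 0.394% in knockdown. The 9 minus-strand rows, nearly all of whose counts are MT-ND6, took 1.42%, 1.38% and 1.40% of mitochondrial counts in control and 1.67%, 1.76% and 1.70% in knockdown. Neither pair of groups overlapped. Each of these comparisons gave an exact permutation p of 0.1, the smallest that 3 against 3 libraries allow, and 0.14 after Benjamini-Hochberg adjustment over the 7 share and ratio tests made.

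**Figure D1:**
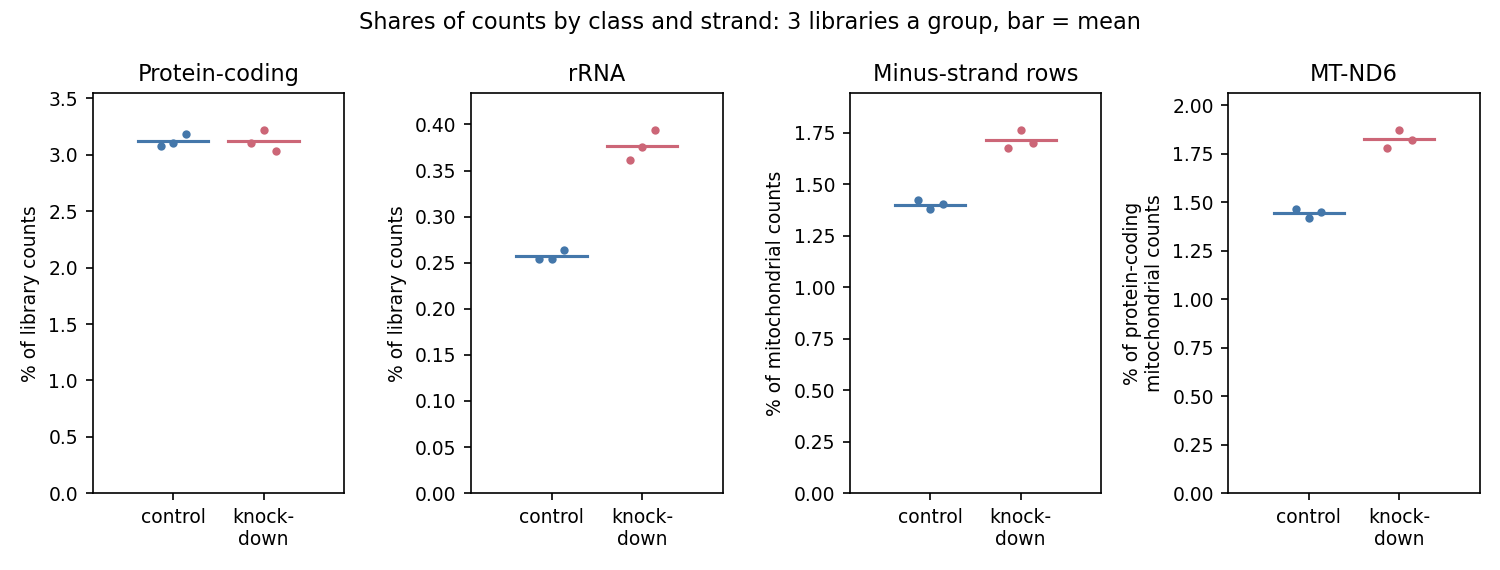
Percent of counts by class and strand, 1 point per library (blue control, red knockdown) with the group mean as a bar and axes from 0. The protein-coding share overlaps between groups, with both means at 3.12%, whereas the mean rRNA share is 0.257% in control and 0.377% in knockdown, the minus-strand share 1.40% and 1.71%, and the MT-ND6 share of protein-coding mitochondrial counts 1.45% and 1.82%, with separate groups.

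For single genes, edgeR's quasi-likelihood test was run over the 17223 genes left by the filter on low counts, with TMM scaling, which corrects library sizes for differences in make-up. A gene was called where its adjusted p (edgeR, Benjamini-Hochberg) was under 0.05. Fold changes are log2 values, positive where the knockdown was higher. Of the 37 mitochondrial genes 16 passed the filter, namely all 13 protein-coding genes, both rRNA genes and MT-TP, and the other 21 tRNA genes did not. Of the 13 protein-coding genes, 10 fell, 2 rose and 1 was not called. Among all tested genes 30.9% were called lower, 30.7% higher and 61.6% in either direction, so calls were common in these libraries. The groups did not overlap for 12 of the 13, against 65.3% of all tested genes.

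Abundant genes in general were mostly lower. The median fold change of the 13 was -0.26, against 0.03 over all tested genes. It was -0.29 over the 1060 other genes at least as abundant as MT-ND3, the least abundant of the 13, and 70.6% of those 1060 were called lower and 20.4% higher. The groups did not overlap for 90.9% of those 1060, close to the 92.3% of the 13. The median of the mitochondrial mRNAs was near that of other genes of such abundance. TMM factors were 0.941 to 0.954 in the control libraries and 1.05 to 1.06 in the knockdown libraries, so the sizes of these falls depend on scaling. With library size as the only scaling, the median of all tested genes moved up by 0.15, and that of the 13 was -0.11. In that setting 9 of the 13 were called lower and 4 higher. Of all 17223 tested genes, 3855 were called lower and 6986 higher in that setting.

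**Figure D2:**
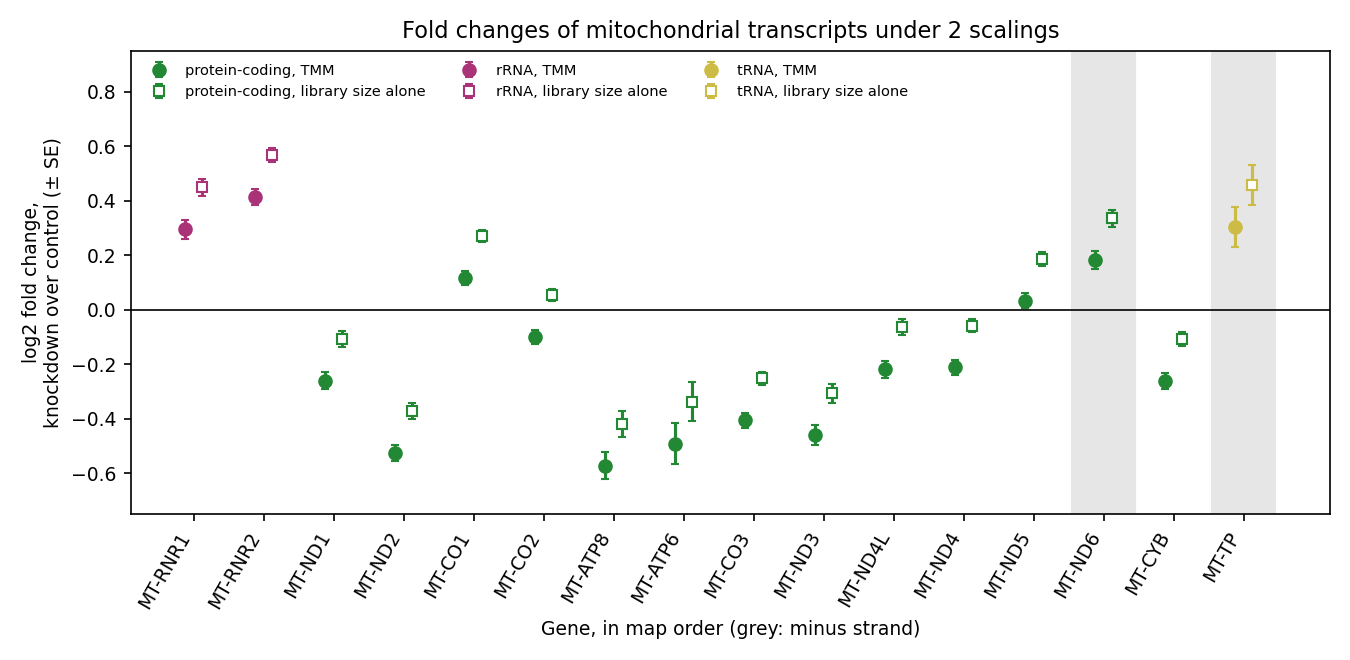
Log2 fold change, knockdown over control, with its standard error for the 16 tested mitochondrial genes in map order, minus-strand genes shaded grey. Filled circles are on the TMM scale and open squares use library size alone. Both rRNAs, MT-CO1, MT-ND6 and MT-TP lie above 0 under both, MT-CO2 changes side, and a run of falls from MT-ATP8 to MT-ND3 reaches -0.57.

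Complex I, the NADH dehydrogenase, has 7 mitochondrially encoded subunits, of which 5 fell, 1 rose and 1 was not called. MT-ND2 (GRCh38 chromosome M, 4470 to 5511, plus strand) had the largest fall among them. It stood at 2711, 2734 and 2779 CPM in control and at 1862, 2036 and 1813 in knockdown. The knockdown values were all below the control values, and it fell by 0.53 ± 0.03 (SE) on the log2 scale (edgeR, adjusted p = 5.56e-19). MT-ND3, a small membrane subunit, had 211, 211 and 217 CPM in control and 150.02, 162 and 152 in knockdown. It fell by 0.46 on the log2 scale, and its groups did not overlap either.

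The other complex I subunits moved less. MT-ND1 fell by 0.26, from 2100 ± 112 to 1751 ± 63.2 CPM (SD, n = 3), with separate groups. MT-ND4L and MT-ND4, which share 7 bases and a transcript, fell by 0.22 and 0.21. Within each library, the log2 ratio of MT-ND4 to MT-ND4L counts was 2.89 ± 0.0210 in control and 2.89 ± 0.0162 in knockdown (n = 3, exact permutation p = 0.7).

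MT-ND5 and MT-ND6 abut each other on opposite strands, and neither fell. MT-ND5 (12337 to 14148, plus strand), a large membrane subunit that carries part of the proton path, had 2315, 2370 and 2430 CPM in control and 2412, 2511 and 2349 in knockdown. The groups overlapped, and it was not called, at 0.03 ± 0.03 (SE) (edgeR, adjusted p = 0.331). With library size alone it was called higher, at 0.19, and with upper-quartile factors at 0.09.

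MT-ND6 (14149 to 14673) is the 1 protein-coding gene on the minus strand. It had 473, 466 and 492 CPM in control and 521, 577 and 525 in knockdown. The groups did not overlap, and it rose by 0.18 ± 0.03 (SE) (edgeR, adjusted p = 4.97e-06). Its share of all protein-coding mitochondrial counts was 1.47%, 1.42% and 1.45% in control and 1.78%, 1.87% and 1.82% in knockdown. Strandedness of the counting is not given in the sources used here, and reads from RNA of the opposite strand over MT-ND6 may be included.

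Against both of its protein-coding neighbours, MT-ND6 took a larger part in every knockdown library. The log2 ratio of MT-ND5 to MT-ND6 counts went from 2.31 ± 0.0301 to 2.16 ± 0.0442, and that of MT-CYB to MT-ND6 from 2.16 ± 0.0293 to 1.71 ± 0.0576 (n = 3). Groups were separate for both ratios, each with an exact permutation p of 0.1 and 0.133 after adjustment over the 8 ratios computed. These ratios were chosen with the fold changes known and describe the same counts.

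Complex III has 1 mitochondrially encoded subunit, cytochrome b, and complex IV, cytochrome c oxidase, has 3. MT-CYB fell by 0.26, from 2126 ± 62.4 to 1772 ± 63.9 CPM (SD, n = 3), with separate groups. The 3 cytochrome c oxidase genes moved apart from each other. MT-CO1 (ENSG00000198804, 5904 to 7445, plus strand), the catalytic subunit, was the second most abundant of all 17223 tested genes. It had 8335, 8546 and 8642 CPM in control and 9088, 9498 and 9075 in knockdown. All knockdown values lay above all control values, and it rose by 0.12 ± 0.02 (SE) (edgeR, adjusted p = 5.1e-05).

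MT-CO2, which takes electrons from cytochrome c, had 3011, 2995 and 3038 CPM in control and 2815, 2832 and 2785 in knockdown. The groups were separate, but the difference was small. It was called lower at -0.10, lost the call with upper-quartile factors (-0.04) and was called higher with library size alone (0.05). MT-CO3 fell by 0.41, from 2860 ± 99.2 to 2157 ± 60.8 CPM. In each library the order of change can be read without scaling, from ratios of counts. The log2 ratio of MT-CO1 to MT-CO2 was 1.47 to 1.51 in control and 1.69 to 1.75 in knockdown, and that of MT-CO2 to MT-CO3 was 0.03 to 0.11 and 0.36 to 0.41 (exact permutation p = 0.1 for each, 0.133 adjusted over 8 ratios).

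Both ATP synthase genes fell. MT-ATP8, a short accessory subunit, had 220.1, 239.9 and 240.1 CPM in control and 159, 169.5 and 142 in knockdown, and fell by 0.57 ± 0.05 (SE). MT-ATP6, which forms part of the proton channel, had 2890, 2878 and 3112 CPM in control and 2059, 2311 and 1945 in knockdown. It fell by 0.49 ± 0.08 (SE) (edgeR, adjusted p = 0.00359). Neither gene's groups overlapped. The log2 ratio of MT-ATP6 to MT-ATP8 counts was 3.58 to 3.71 in control and 3.70 to 3.77 in knockdown, which overlapped (exact permutation p = 0.2). The ratios of MT-ATP6 to MT-ATP8 and of MT-ND4 to MT-ND4L thus overlapped between groups, over counts that the treatment of shared bases can affect. No ratio was computed for MT-ATP6 and MT-CO3.

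**Figure D3:**
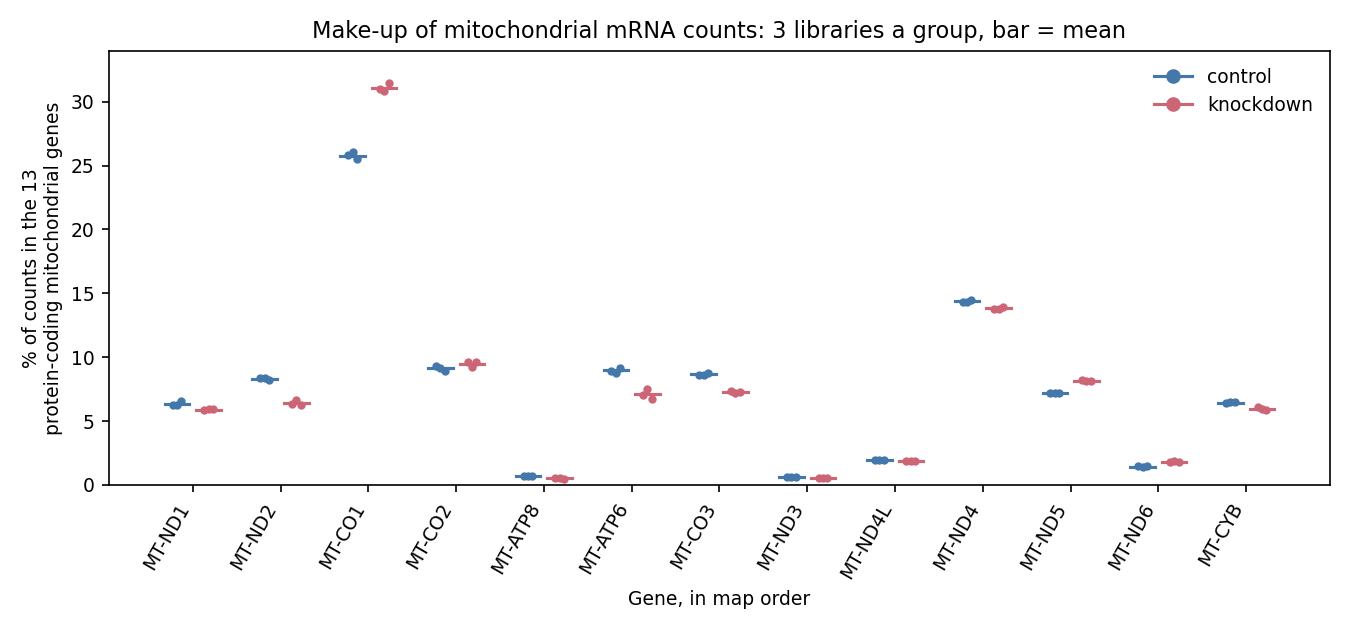
Percent of the counts in the 13 protein-coding mitochondrial genes that fell in each gene, in map order, 1 point per library (blue control, red knockdown) with the mean as a bar. MT-CO1 goes from 25.8% to 31.1% and MT-ND5 from 7.19% to 8.18%, while MT-ND2 goes from 8.31% to 6.42% and MT-ATP6 from 8.97% to 7.09%.

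The same changes appear as a shift of make-up inside the mRNA pool, which depends on no scaling factor. MT-CO1 made up 25.8%, 26.1% and 25.5% of protein-coding mitochondrial counts in control and 31.0%, 30.9% and 31.5% in knockdown. MT-ND5 and MT-ND6 also took larger shares in every knockdown library, and 9 genes took smaller ones. MT-CO2 was the exception, with shares of 8.96% to 9.32% in control and 9.20% to 9.66% in knockdown, which overlapped. Shares sum to the whole, so a gain of the most abundant member lowers all others. Exact permutation p-values were 0.1 for the 12 separated genes, 0.108 after adjustment over the 13.

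Levels of different genes were compared per kilobase of gene, as CPM per kb. In control MT-CO1 was highest at 5517 ± 102, then MT-CO2 at 4408 ± 32.1 and MT-ATP6 at 4346 ± 193, the last pair lying within their spread. MT-CO3 followed at 3648 ± 127 and MT-ND4 at 3445 ± 104. MT-ND2 was at 2631 ± 32.9, MT-ND1 at 2196 ± 117 and MT-ND4L at 2163 ± 34.2, of which MT-ND1 and MT-ND4L do not differ beyond their spread. The lowest values among the protein-coding rows were those of MT-CYB (1863 ± 54.7), MT-ND5 (1309 ± 31.5), MT-ATP8 (1127 ± 55.5), MT-ND6 (908 ± 25.8) and MT-ND3 (615 ± 10.5). Protein-coding rows of the plus strand spanned a wide range of values per kilobase in control. MT-ND4L and MT-ND4 differed although they share a transcript, so a row's value per kilobase need not be the level of its mRNA. MT-ATP8 and MT-ATP6 share bases too, and the part of the counting in such differences was not tested. In knockdown MT-ND2, at 1827 ± 113, came level with MT-ND1 at 1832 ± 66.1 and MT-ND4L at 1858 ± 77.4.

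Correlations of fold change with gene start, length and GC content depended on which mRNAs entered. With gene start, Pearson's r was 0.32 over all 13 mRNAs (Spearman 0.31), 0.12 over the 12 on the plus strand (Spearman 0.17) and 0.45 over the 10 without MT-CO1, MT-ND5 and MT-ND4 (Spearman 0.32). With gene length it was 0.45 over the 13 (Spearman 0.41), 0.68 over the 12 (Spearman 0.61) and 0.02 over the 10 (Spearman 0.05). With GC content it was 0.38 over the 13 (Spearman 0.30), 0.57 over the 12 (Spearman 0.51) and 0.29 over the 10 (Spearman 0.35). The genes left out of the 10, MT-ND5, MT-CO1 and MT-ND4, are the longest of the 13, at 1812, 1542 and 1378 bases. The 10 thus cover a narrower range of lengths, and their value for length cannot show whether that relation holds. All these correlations are descriptions across genes that share libraries and precursors, and genes are not independent replicates.

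**Figure D4:**
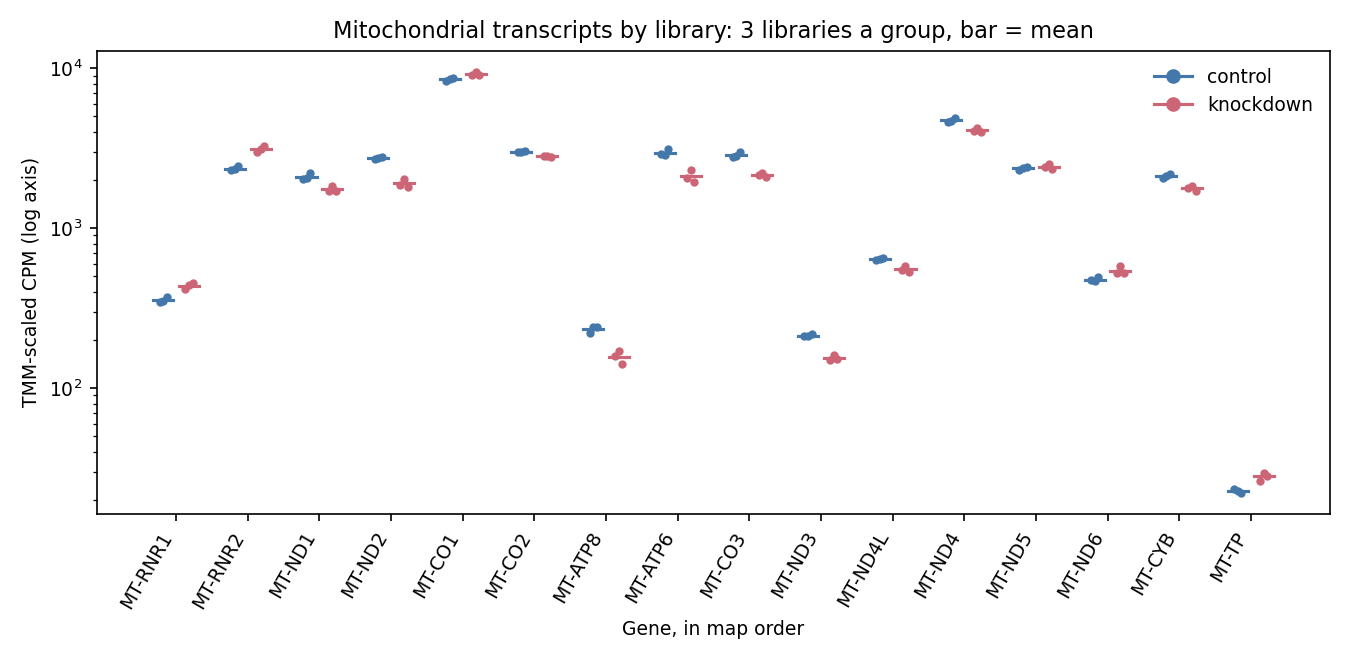
TMM-scaled CPM of the 16 tested mitochondrial genes in map order on a log axis, 1 point per library (blue control, red knockdown) with the mean as a bar. Levels run from 22.2 CPM for MT-TP to 9498 for MT-CO1, and in all but MT-ND5 the groups do not overlap.

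Both rRNAs of the mitochondrial ribosome rose. MT-RNR2, the large-subunit rRNA (1671 to 3229, plus strand), had 2317, 2330 and 2434 CPM in control and 2994, 3148 and 3287 in knockdown. It rose by 0.41 ± 0.03 (SE) (edgeR, adjusted p = 2.44e-18). MT-RNR1, the small-subunit rRNA (648 to 1601, plus strand), had 345, 352 and 372 CPM in control and 414, 439 and 457 in knockdown, and rose by 0.29 ± 0.03 (SE). Every knockdown library lay above every control library for both. Both were called higher in all 13 alternatives, by 0.25 to 0.45 for MT-RNR1 and 0.37 to 0.57 for MT-RNR2.

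The mitochondrial rRNAs moved in the opposite direction from most mRNAs on the same strand. The log2 ratio of rRNA to mRNA counts was -3.60, -3.61 and -3.59 in control and -3.10, -3.10 and -2.95 in knockdown. That is a difference of 0.55 with separate groups (exact permutation p = 0.1, 0.14 adjusted over 7). MT-ND1, the first mRNA after MT-RNR2 on the map, went from a log2 ratio to MT-RNR2 of -0.17 ± 0.0375 to one of -0.84 ± 0.0846 (n = 3). The log2 ratio of MT-RNR2 to MT-RNR1 was 2.71 to 2.75 in control and 2.84 to 2.85 in knockdown. The 2 rRNAs stood at 1514 ± 41.1 and 373 ± 15.2 CPM per kb in control, although both come from 1 precursor, and MT-RNR2 lay between MT-CYB and MT-ND5. The labels name total RNA and a TruSeq kit but not whether RNA was selected by its poly(A) tail or depleted of rRNA, so the rRNA levels describe these libraries. A part of that library step in the rRNA difference was not tested.

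Mitochondrial tRNAs carry amino acids to the mitochondrial ribosome and mark the cutting sites of the precursor. Their rows were almost empty, with 1 exception. MT-TP held 764, 733 and 640 counts in control and 780, 744 and 726 in knockdown, which was 94.3% of all counts in the 22 rows. On the TMM scale it had 23.4, 22.6 and 22.2 CPM in control and 26.4, 29.3 and 28.4 in knockdown. The groups were separate, and it rose by 0.30 ± 0.07 (SE) (edgeR, adjusted p = 0.000377). As for MT-ND6, reads from RNA of the opposite strand may be included, and whether the reads come from the mature tRNA was not tested.

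None of the other 21 tRNA rows had more than 10 counts in any library. Together they had 57, 64 and 38 counts in control and 32, 35 and 40 in knockdown. As CPM of the unscaled library total that was 1.24 to 1.87 in control and 1.15 to 1.65 in knockdown, which overlapped, and none of these rows passed the filter. MT-TV, MT-TM, MT-TW and MT-TH had 0 counts in all 6 libraries, where 3 counts, the upper limit that a count of 0 allows, correspond to 0.0874 to 0.124 CPM of the unscaled library total. MT-TT, whose sequence is printed above beside that of MT-TP, had 1 count in each control library and 0 in each knockdown library. The 7 other minus-strand rows had 178 counts over all libraries and the 14 plus-strand rows 88.

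**Figure D5:**
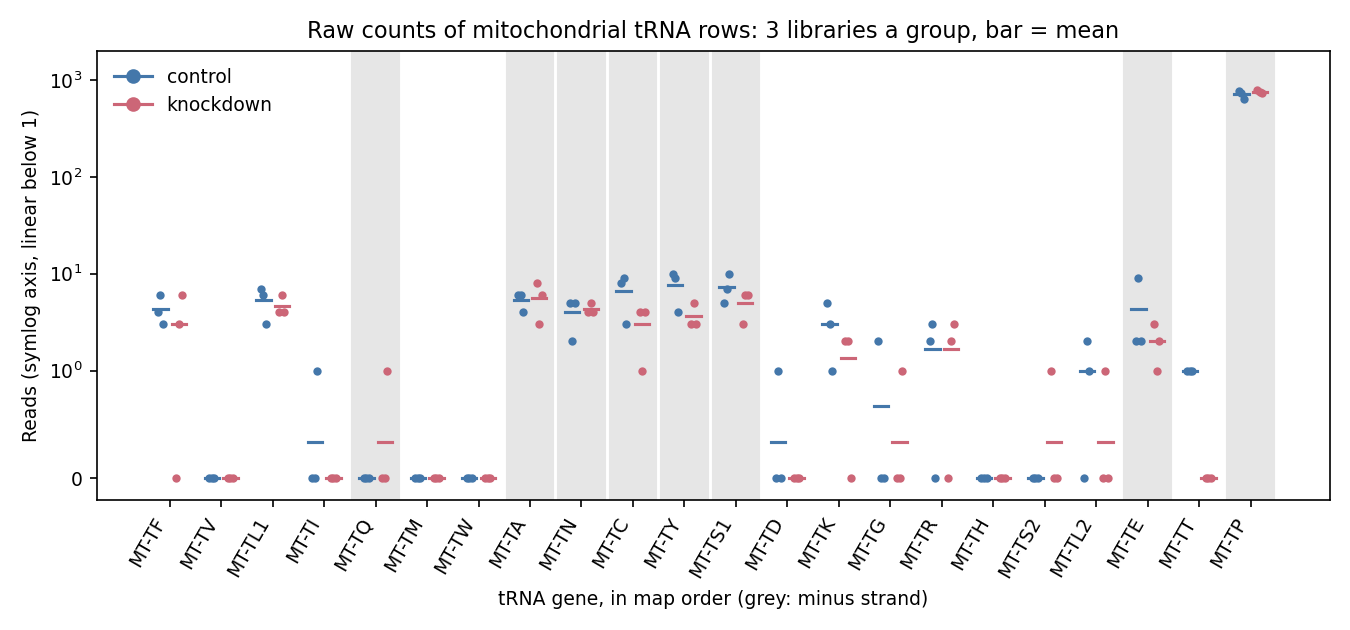
Raw read counts of the 22 mitochondrial tRNA rows in map order, 1 point per library (blue control, red knockdown), on an axis that is linear below 1 and logarithmic above, minus-strand rows shaded grey. MT-TP stands at 640 to 780 in every library, and no other row exceeds 10.

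In the annotation most tRNA genes abut their neighbours. Of the 22, 4 have a gap of at least 10 bases to the next gene on either side, namely MT-TN and MT-TC with 31, MT-TK with 25 and MT-TY with 12. MT-TP is the last gene on the map and MT-TF the first, so each has a neighbour on 1 side alone in this annotation. MT-TF had 22 counts over all libraries. How the counting treated a read that spans a short gene and its neighbour is not given in the sources used here, and its part in these counts was not tested.

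Near-identical copies of mitochondrial sequence lie in the nuclear genome, and reads of the 2 can be misassigned. The table held 417 rows named as copies of mitochondrial genes, of which 93 had a count. They were found by symbol, and their likeness to the mitochondrial genes was not checked. The counts of these rows summed to 0.0590% to 0.0640% of the mitochondrial counts per library. How reads that match both places were counted is not given, so these counts do not show how many reads were dropped or misassigned. The most counted copy was MTCO1P12 on chromosome 1, with 226, 224 and 162 counts in control and 189, 162 and 179 in knockdown. That was 0.0741% of the counts of MT-CO1. MTCO1P12 was not called, at 0.02. MTATP6P1 fell by 0.82, with 100, 73 and 85 counts in control and 31, 66 and 27 in knockdown, but lost its call without knockdown replicate 1 (-0.59) or 3 (-0.62). MTCO3P12, MTND2P28 and MTND4P12 were not called, at -0.16, -0.36 and -0.57. MTND4P12 was called lower without control replicate 3 (-0.81, edgeR adjusted p = 0.0463). MTCO3P12 had values from -0.61 to 0.41 over its alternatives, and its sign turned without control replicate 3 (0.41) or knockdown replicate 3 (0.16).

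The nuclear genes that make, process and translate mitochondrial RNA were read from 5 lists with 70 genes, all of which were tested. Of these 34 fell, 12 rose and 24 were not called, with a median of -0.14. Against the 30.9% lower and 30.7% higher of all tested genes, 48.6% were lower and 17.1% higher. With library size alone 23 were lower and 20 higher, and their median was 0.015. In that setting 3855 of all 17223 tested genes were lower and 6986 higher, with a median of 0.18. Abundant genes in general were mostly lower, and these lists were not compared with genes of like abundance. None of what follows was tested against the levels of the mitochondrial genes.

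Of 8 genes for mitochondrial transcription, 4 fell and 2 rose. POLRMT, the mitochondrial RNA polymerase, had 169.5, 174 and 179.5 CPM in control and 133, 139 and 144 in knockdown, and fell by 0.33. TFAM, which packs mitochondrial DNA and bends its promoters, had 152, 165 and 163 CPM in control and 103, 112 and 110 in knockdown, and fell by 0.56. TFB2M, which opens the promoter for the polymerase, fell by 0.77, from 45.01 ± 2.11 to 26.3 ± 2.91 CPM (SD, n = 3). Groups were separate for all 3. MTERF3 fell by 0.45, MTERF1 rose by 0.28, and TEFM, the elongation factor, rose by 0.33 but lost its call without control replicate 2 or 3 or knockdown replicate 2 or 3 (0.22 to 0.32) and with DESeq2 (0.31).

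Of 23 genes for RNA processing and modification, 10 fell (43.5%) and 4 rose (17.4%), against 30.9% and 30.7% of all tested genes. ELAC2, the nuclease that cuts the 3′ ends of mitochondrial tRNAs, fell by 0.69, from 238 ± 2.40 to 147 ± 2.26 CPM (SD, n = 3). PRORP, the catalytic subunit of the nuclease that cuts their 5′ ends, had 11.4, 10.2 and 11.3 CPM in control and 16.0, 14.4 and 14.1 in knockdown, and rose by 0.44. Its partners differed, with HSD17B10 at -0.36 and called and TRMT10C at -0.05 and not called. TRMU and GTPBP3, which modify the wobble base of tRNAs, fell by 0.52 and 0.51. PTCD2 rose by 0.35. NSUN4, an rRNA methyltransferase, was called at 0.15, but its groups overlapped, and it lost the call in 8 of 13 alternatives (0.08 to 0.17).

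Of 14 genes for RNA stability and decay, 7 fell and 3 rose. LRPPRC and SLIRP form the complex that protects mitochondrial mRNAs. SLIRP had 78.1, 73.1 and 76.9 CPM in control and 30.2, 29.7 and 30.7 in knockdown, and fell by 1.33 ± 0.06 (SE) (edgeR, adjusted p = 2.41e-29). LRPPRC had 438, 439 and 427 CPM in control and 303, 299 and 305 in knockdown, and fell by 0.53. Both were lower in every knockdown library. FASTKD1 fell by 0.38.

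Enzymes that act on RNA ends and on decay were mixed. MTPAP, the mitochondrial poly(A) polymerase, rose by 0.28, and PDE12, which removes poly(A), rose by 0.32. PNPT1, the nuclease of the mitochondrial degradosome, had 134, 132 and 133 CPM in control and 142, 142 and 166 in knockdown. It rose by 0.17, though knockdown replicate 3 was far above the others and the call was lost without it (0.08, edgeR adjusted p = 0.0891). SUPV3L1, the helicase that works with PNPT1, had 59.8, 66.4 and 66.4 CPM in control and 54.2, 60.2 and 65.3 in knockdown, which overlapped, and was not called, at -0.10. It was called without control replicate 1 (-0.16) or knockdown replicate 3 (-0.17).

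Of 11 genes for maintenance of mitochondrial DNA, 8 fell (72.7%) and 1 rose (9.09%), against 30.9% and 30.7% of all tested genes. DNA2, a nuclease and helicase, fell by 0.68, TOP1MT, the mitochondrial topoisomerase, by 0.60 and MGME1 by 0.35. POLG2, the accessory subunit of the DNA polymerase, rose by 0.18 and lost its call without control replicate 2 (0.15), without knockdown replicate 2 (0.15) and with DESeq2 (0.16). The number of mitochondrial genomes per cell was not measured.

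Of 14 mitochondrial translation factors, 5 fell (35.7%), 2 rose (14.3%) and 7 were not called, with a median of 0.01. The share that fell was near the 30.9% of all tested genes. MTFMT, which formylates the initiator methionyl-tRNA, had 25.9, 27.3 and 26.4 CPM in control and 9.06, 8.44 and 5.83 in knockdown. It fell by 1.76 ± 0.10 (SE) (edgeR, adjusted p = 8.54e-21), the largest fall of the 70 genes. The elongation factors TUFM and GFM1 fell by 0.53 and 0.59. MTRF1, a release factor, rose by 0.89, from 8.25 ± 1.21 to 15.3 ± 1.23 CPM (SD, n = 3). MTRF1L, its paralog, rose by 0.19 and lost the call without control replicate 1 (0.13) and with DESeq2 (0.17).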

How the data were processed

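The values are raw counts by Ensembl gene, 1 column for each library, in a single table that the authors deposited. The submitters' processing notes name featureCounts 2.0.1, STAR 2.7.0d, Trim Galore 0.6.6, DESeq2 1.30.1 and the build hg38, with no roles. Annotation, strandedness and how reads over several genes or places were counted: not given in the sources used here. Mitochondrial genes were found by symbol, and classes, strands, coordinates and sequences came from GENCODE v29 (GRCh38), which held all 37.

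Counts were filtered with filterByExpr (minimum count 10), scaled by TMM and tested with edgeR 4.0.16 (quasi-likelihood, robust, group as the only term, R 4.3.3) over 17223 genes, adjusted by the Benjamini-Hochberg method. The test was tested on simulated data. It called, with the right sign, 75 of 99 genes changed by 1 on the log2 scale and 55 of 99 changed by 0.5. Of 16686 unchanged genes it called 11. Shares and log2 ratios were compared over libraries with exact permutation tests (scipy 1.17.1). A count of 0 was given an upper limit of 3 counts, which covers counting error alone. SE was derived from the test statistic. The common biological coefficient of variation was 4.67%.

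All 37 mitochondrial genes are reported. From each nuclear list up to 3 rises and 3 falls with a mean log2 CPM of at least 1 (prior count 2) are named, with POLRMT, TFAM, LRPPRC, PNPT1 and SUPV3L1 whatever their values, and the 5 nuclear copies with most counts. HSD17B10 and TRMT10C are named beside PRORP, chosen after their values were seen. Members and lists were chosen with earlier results of these data known. Alternatives were other scalings, no filter, DESeq2 1.42.0, a replicate block and leaving out each library.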

Additional observations from a re-analysis of the deposited data

How the results depend on the processing

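Under 13 alternatives for each tested gene, MT-CO1, MT-ND6, both rRNAs and MT-TP were called higher and 9 of the 10 lower protein-coding genes were called lower in every one. The exception was MT-CO2, which was at 0.0525 (called higher) with library size alone and lost its call with upper-quartile factors. Library size alone gave 4 protein-coding mitochondrial genes higher and 20 nuclear genes higher, and moved the median of all tested genes up by 0.15. It called 6986 of the 17223 tested genes higher and 3855 lower. DESeq2 gave 7 nuclear genes higher. Leaving out 1 library gave 8 to 11 nuclear genes higher and 31 to 35 lower.

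The difference in the protein-coding share of counts (-0.00322 percentage points) had no stable sign. It was 0.000523 with both rRNA rows left out of the total and -0.0534 to 0.0398 when 1 library was left out. Leaving out 1 library kept the sign of the other shares and of the rRNA to mRNA ratio (0.499 to 0.579).

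With the replicate block, 2 protein-coding genes were higher and 10 lower, 3 rRNA and tRNA genes were higher, and 10 nuclear genes were higher and 35 lower. Shares and ratios had the same differences and an exact sign-flip p of at least 0.25, the smallest 3 pairs allow. Deviations of same-numbered libraries correlated at -0.000751, -0.00642 and -0.0235, and 0 of 6 libraries matched best with their own number, so the numbers do not show a pairing. The tRNA rows other than MT-TP did not pass the filter, and the cause of their low counts was not tested. Without the filter the rRNA and tRNA rows with a count, 20 in all, gave the same 3 calls higher.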
